A study of Mus musculus with 11 samples.

Results

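The BCL2 family decides at the outer mitochondrial membrane whether a cell lives or dies. Prosurvival members (BCL2, BCL-XL, MCL1 and A1) bind and hold in check both the effectors BAX and BAK, which permeabilize that membrane, and the BH3-only proteins (BIM, PUMA, NOXA and BMF), which sense stress and set the effectors free. Germinal center (GC) B cells are known to be prone to apoptosis, to depend on MCL1 and to hold little BCL2, whose gene is repressed by BCL6, whereas memory B cells (MBCs) are long-lived and carry BCL2. MYC in complex with MIZ1 has been described as a repressor of BCL2, which is the link of the family to the mutation studied here.

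The 10 genes Bcl2, Bcl2l1 (BCL-XL), Mcl1, Bcl2a1b (A1), Bax, Bak1, Bcl2l11 (BIM), Bbc3 (PUMA), Pmaip1 (NOXA) and Bmf were taken by name, with earlier results of these data known. No cutoff on their values was used, and all 10 were found by Ensembl identifier among the 48795 genes of the expression table. RNA was measured in 11 libraries of B cells sorted from spleens of 8 to 12 week old female mice on the C57BL/6 background, on day 10 after intravenous injection of sheep red blood cells. MycWT light zone (LZ) GC B cells came from 4 mice (1 to 4) and MycVD LZ B cells from 4 others (5 to 8), both gated as B220+ CD138neg IgDneg CD38neg Fas+ CD86high CXCR4low. MycVD mice carry at the endogenous Myc locus, and so in all their cells, the V394D replacement that prevents MYC from binding MIZ1. MycWT MBCs (B220+ CD138neg IgDneg CD38+ CD273+) came from 3 of the MycWT mice (1, 3 and 4); MycVD MBCs were not analysed here. The mouse names of MycWT mice 1 to 3, of MycWT mouse 4 and of the MycVD mice begin with 3 different codes, whose meaning is not stated, so that genotype and code cannot be told apart.

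Values are TPM, a unit that corrects estimated reads for the length of a transcript and gives every library the same sum. Levels of different genes can therefore be compared within a library, but the reads behind a value are unknown. Ribosomal RNA took 35.7 to 44.5% of TPM in MycWT LZ, 44.1 to 61.3% in MycVD LZ and 36.1 to 37.5% in MBCs, and genes above 0 numbered 15460 to 19537, 13169 to 16421 and 11527 to 16040. Ribosomal RNA was highest in MycVD mouse 8. Genes above 0 were fewest in MycVD mouse 6 among the LZ libraries and in mouse 3 among the MBC libraries. All 6 memory or non-GC B cell markers lay above the MycWT LZ libraries in all MBC libraries, and all 6 GC markers below them. Of all genes, 11.8% lay above and 14.4% below in this way. Cd38, Pdcd1lg2 (CD273), Fas and Cd86 are in these lists and encode proteins of the sort gates, so they are no independent check. In bulk RNA, fewer cells holding a transcript and less of it per cell cannot be told apart. The MBC library of mouse 3 stood apart, with a summed level of 4 erythroid genes of 2160 TPM against 3.86 and 16.7 TPM in the other MBC libraries and 74.7 to 119 TPM in MycWT LZ.

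Of the members, Bcl2 differed most between MBCs and MycWT LZ (log2 difference 4.65), but by only 0.40, with overlap, between MycVD and MycWT LZ. Bax had the lowest log2 difference in both comparisons. The sequences upstream of these 2 members are shown. Both are the 250 bases just before the transcription start in RefSeq (GRCm38.p6), read 5′ to 3′ on the gene's strand, and hold no exon annotated in GENCODE M21. Capitals mark CACGTG, the E-box bound by MYC with MAX, and GGGCGG, the GC box, searched on both strands.

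Bcl2, chr1:106714291-106714540, minus strand: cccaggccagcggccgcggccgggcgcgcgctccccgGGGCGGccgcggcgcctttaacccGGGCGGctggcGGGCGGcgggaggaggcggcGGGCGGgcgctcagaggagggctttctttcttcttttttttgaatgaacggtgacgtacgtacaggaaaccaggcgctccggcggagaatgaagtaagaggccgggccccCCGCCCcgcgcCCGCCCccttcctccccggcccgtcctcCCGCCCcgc

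Bax, chr7:45466899-45467148, minus strand: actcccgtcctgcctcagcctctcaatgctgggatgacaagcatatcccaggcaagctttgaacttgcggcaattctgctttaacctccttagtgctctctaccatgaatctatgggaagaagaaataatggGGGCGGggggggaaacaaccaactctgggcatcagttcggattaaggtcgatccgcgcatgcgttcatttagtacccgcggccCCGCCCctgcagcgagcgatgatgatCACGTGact

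The Bcl2 window, with 74.8% G and C, held 7 GC boxes and no E-box. The Bax window, with 54.0% G and C, held 2 GC boxes and 1 E-box, which ends 3 bases before the start, and no matches overlapped each other. Among the 32851 such windows of the genome's promoters, 32.7% held a GC box and 6.02% an E-box. RefSeq windows were at hand for 9 of the members, 16 in all, of which 9 held a GC box and 2 an E-box (Bax and 1 of the 3 windows of Bbc3). TATAAA, the TATA box, was in 12.4% of all windows and in 0 of these 16. These matches are letters in a window and say nothing on the binding of a factor in these cells.

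**Figure D1:**
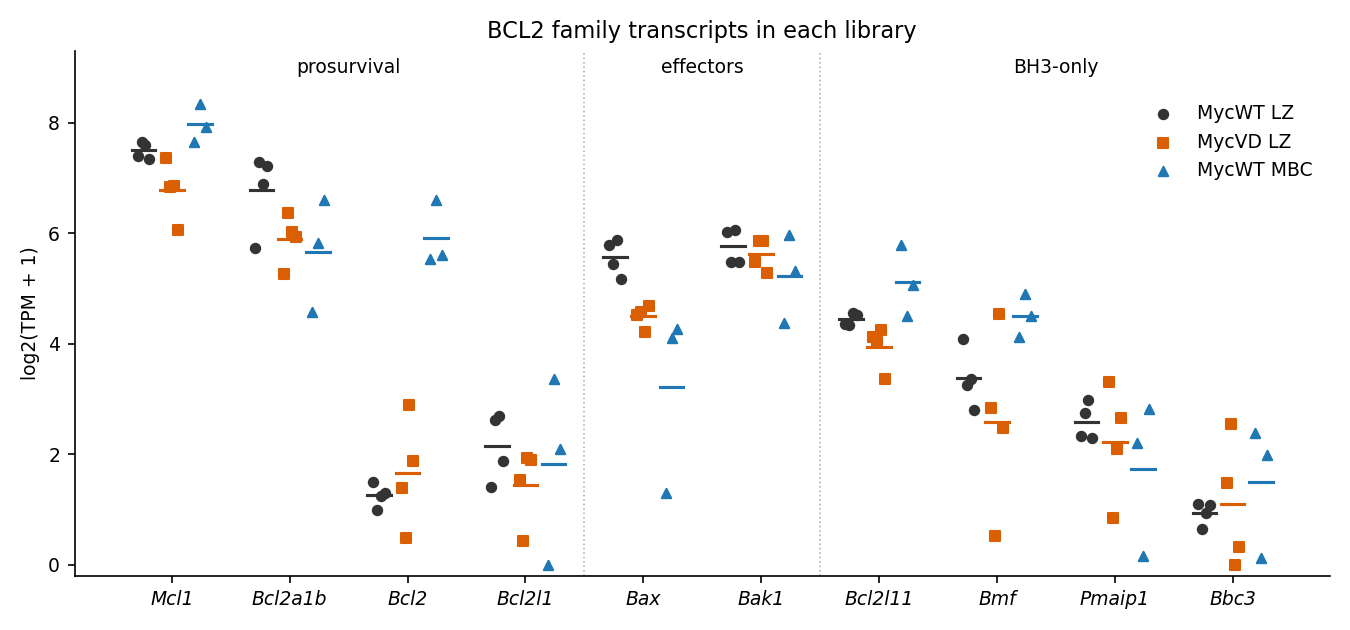
Level of the 10 genes, as log2(TPM + 1), in each of the 11 libraries, by role; each point is 1 library and each bar the mean of its group (4 MycWT LZ, 4 MycVD LZ, 3 MycWT MBC libraries). Bcl2 stands at 0.99 to 1.83 TPM in MycWT LZ and at 45.2 to 95.4 TPM in MBCs, and Bax is lower in all MycVD LZ and all MBC libraries than in any MycWT LZ library.

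Mcl1 and the A1 genes made up nearly all prosurvival transcripts of LZ B cells, and Bcl2 was low. In MycWT LZ the order of the members by median TPM was Mcl1 (181), Bcl2a1b (132), Bak1 (53.8), Bax (48.2), Bcl2l11 (20.6), Bmf (8.88), Pmaip1 (4.85), Bcl2l1 (3.92), Bcl2 (1.41) and Bbc3 (1.02). Mcl1 lay above Bcl2a1b, Bax above Bcl2l11, and Bcl2l11 above Bmf in all libraries of the group, while the ranges of the other neighbours overlapped. Of the summed TPM of Mcl1, Bcl2a1b, Bcl2 and Bcl2l1, Mcl1 made up 51.6 to 75.1% in MycWT LZ and Bcl2 0.276 to 0.817%. A1 is there counted from Bcl2a1b alone, whose reads cannot be cleanly separated from those of its near-identical copies. With Bcl2a1a, Bcl2a1b and Bcl2a1d summed, the share of Mcl1 was 43.6 to 63.8% and that of Bcl2 0.217 to 0.694%, and Mcl1 lay below the summed A1 genes in 2 of 4 MycWT LZ, 2 of 4 MycVD LZ and 0 of 3 MBC libraries. The order was the same in MycVD LZ, where Bak1 and Bax were the only neighbours with separate ranges. In MBCs Bcl2 stood in the third place (median 47.4 TPM) after Mcl1 (242) and Bcl2a1b (55.7), and Bax stood after Bcl2l11 and Bmf. There, only the ranges of Mcl1 and Bcl2a1b were separate.

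**Figure D2:**
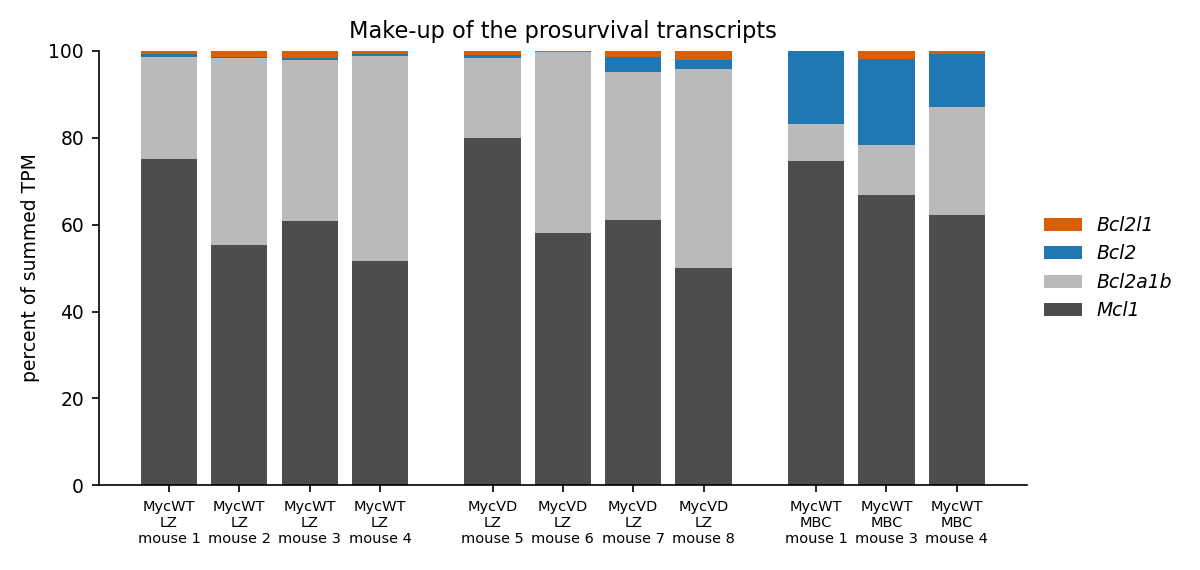
Share of Mcl1, Bcl2a1b, Bcl2 and Bcl2l1 in their summed TPM, in percent, with 1 bar for each library; the other A1 copies are not in the sum. Bcl2 makes up 12.2 to 19.8% of the bar in MBCs, 0.276 to 0.817% in MycWT LZ and 0.205 to 3.41% in MycVD LZ.

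The comparison of MycVD with MycWT LZ B cells asks what loss of the MYC-MIZ1 complex changes in the family. None of the 10 genes passed the test (limma on log2(TPM + 1) across all genes, two-sided, adjusted p under 0.05 after Benjamini-Hochberg), in a comparison in which 6 of 12869 genes (0.0466%) passed. At an unadjusted p under 0.05, 3 members were lower (Bax, Mcl1 and Bcl2a1b), beside 15.7% of all genes. In 8 of the 10 the mean was lower in MycVD, as in 73.7% of all genes tested. The median log2 difference was -0.60 for the members and -0.31 for all genes, so each value is to be read against that shift, which falls to -0.01 when TPM are rescaled by the median ratio. No member lay higher in all MycVD than in all MycWT libraries (0.816% of all genes did), and 2 members, Bax and Bcl2l11, lay lower in all of them (9.16% of all genes did). These counts are of TPM as listed. Bcl2l11 overlapped with the median ratio scaling, and Bax and Bcl2l11 overlapped with ribosomal RNA removed. The summed level of 5 plasma cell markers was 114 to 206 TPM in MycVD and 210 to 358 TPM in MycWT LZ. Of the 5, Jchain, most of the sum, lay below all MycWT libraries (67.1 to 144 against 152 to 280 TPM), Xbp1 (43.0 to 66.7 and 54.8 to 73.6), Prdm1 (0.26 to 4.08 and 2.76 to 3.87) and Sdc1 (0 to 6.05 and 0 to 0.12) overlapped, and Tnfrsf17 was at 0 in both groups. The part of this in the differences of the members was not tested.

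Bax, the effector that moves from the cytosol to mitochondria, had the smallest p of the members. It was at 54.0, 42.4, 57.4 and 34.9 TPM in MycWT LZ and at 22.0, 22.9, 17.4 and 24.6 TPM in MycVD LZ. The highest MycVD library lay below the lowest MycWT library, which was mouse 4, whose name begins with another code than those of the other MycWT mice. With ribosomal RNA removed, MycVD mouse 8 lay just above MycWT mouse 4. The log2 difference was -1.07 (SE 0.24, adjusted p = 0.108 from limma), or -0.76 relative to the median of all genes, and the two-sided exact permutation p was 0.0286, the smallest that 4 mice against 4 allow. The adjusted p ranged from 0.0582 to 0.668 over the alternatives, with no call in any. Part of the Bax transcripts (8.51% of their stretches of 50 bases) is shared with Gm45808, an overlapping gene model on the same strand.

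Bak1, the effector that resides on the mitochondria, overlapped between the genotypes. Its levels were 64.0, 43.7, 65.4 and 43.4 TPM in MycWT and 43.3, 57.1, 57.2 and 38.0 TPM in MycVD LZ, with high and low libraries in both groups. The log2 difference was -0.14 (SE 0.24, adjusted p = 0.804 from limma), and it turned to 0.19 with the median ratio scaling and to 0.17 with ribosomal RNA removed. With each library left out in turn it lay between -0.23 and -0.03. Within a library, where scaling has no part, Bax stood to Bak1 as 0.844, 0.970, 0.878 and 0.805 in MycWT LZ and as 0.508, 0.401, 0.304 and 0.647 in MycVD LZ. The 2 sets of ratios did not overlap.

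**Figure D3:**
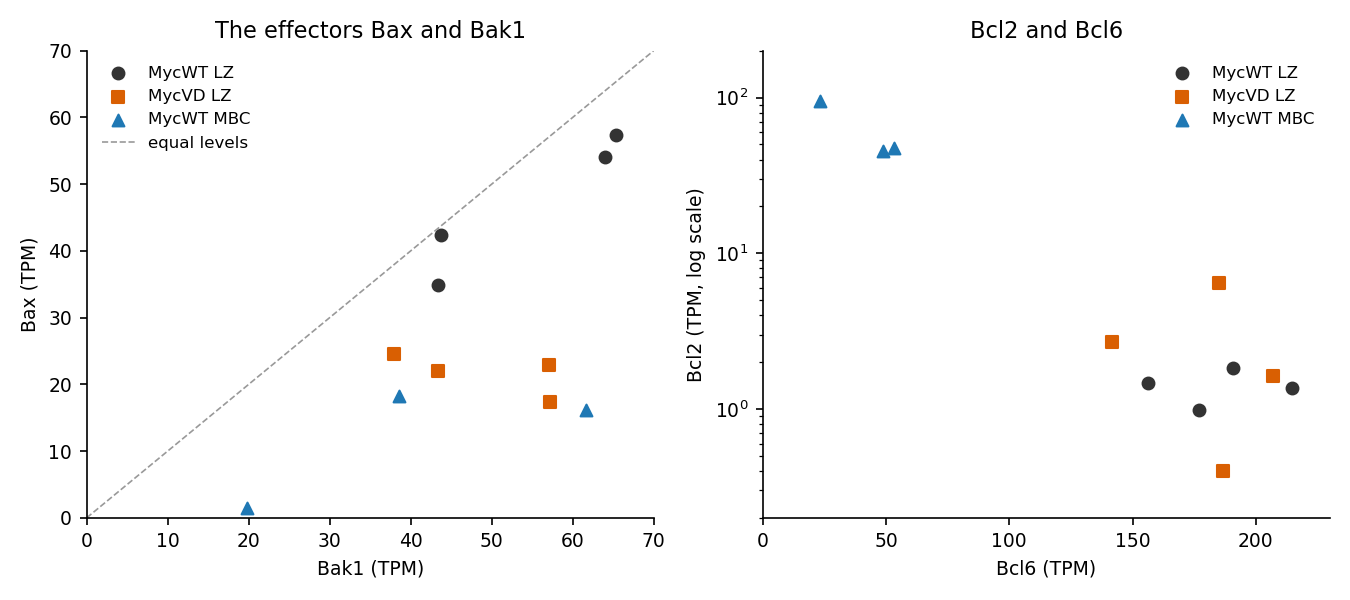
Left, Bax against Bak1 in TPM, with a dashed line at equal levels; right, Bcl2 (TPM, log scale) against Bcl6 (TPM); each point is 1 library. MycWT LZ lies close under the line (0.805 to 0.970 of Bak1) and MycVD LZ (0.304 to 0.647) and MBCs (0.0739 to 0.473) farther below it, and the 3 MBC libraries stand apart with high Bcl2 and low Bcl6.

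Mcl1, a short-lived protein on which GC B cells depend, was at 168, 199, 193 and 161 TPM in MycWT LZ and at 163, 114, 115 and 65.6 TPM in MycVD LZ. Mice 6, 7 and 8 lay below every MycWT mouse and mouse 5 among them. On the log2 scale the difference was -0.72 (SE 0.26, adjusted p = 0.206 from limma), or -0.41 relative to all genes, and -0.48 without MycVD mouse 8. Its share of the prosurvival transcripts overlapped between the genotypes (51.6 to 75.1% and 50.05 to 80.0%).

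Bcl2a1b encodes A1, a target of NF-kB in activated B cells. Its levels were 52.2, 154, 118 and 147 TPM in MycWT LZ, with mouse 1 far below the others, and 37.4, 80.9, 63.9 and 60.1 TPM in MycVD LZ. On the log2 scale the difference was -0.89 (SE 0.35, adjusted p = 0.237 from limma). A1 has near-identical copies in the mouse, and 79.2% of the 50-base stretches of Bcl2a1b are found in transcripts of Bcl2a1d, Bcl2a1a and others, so how reads were divided among them is uncertain. Bcl2a1b, Bcl2a1d and Bcl2a1a summed gave 92.1 to 251 TPM in MycWT and 64.4 to 145 TPM in MycVD LZ, which overlap.

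Bcl2 itself, the member described as repressed by MYC with MIZ1, was at 1.83, 0.99, 1.36 and 1.46 TPM in MycWT LZ and at 1.63, 0.40, 6.40 and 2.68 TPM in MycVD LZ. MycVD mice 7 and 8 lay above all MycWT mice, and mouse 6 below them. The log2 difference was 0.40 (SE 0.52, adjusted p = 0.720 from limma), or 0.71 relative to the median of all genes. Without mouse 7 it was -0.0044, beside a median of all genes of -0.32, so its sign rested on that library. Without mouse 6 it was 0.80. Relative to Bcl2l11, Bcl2 stood at 0.0514 to 0.0943 in MycWT and 0.0262 to 0.355 in MycVD LZ.

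Bcl2l1, whose BCL-XL protein supports the survival of developing and activated lymphocytes, was low, at 1.64 to 5.48 TPM in MycWT and 0.35 to 2.80 TPM in MycVD LZ (log2 difference -0.70, SE 0.48, adjusted p = 0.483 from limma, and -0.36 without MycVD mouse 6).

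Of the 4 BH3-only members, Bcl2l11 had the highest median in each group. BIM, its product, binds all prosurvival members and removes autoreactive lymphocytes. It was at 19.4, 19.3, 22.5 and 21.8 TPM in MycWT LZ and at 16.4, 15.3, 18.0 and 9.28 TPM in MycVD LZ, without overlap in TPM as listed. With the median ratio scaling, or with ribosomal RNA removed, it overlapped between the genotypes. Its log2 difference was -0.50 (SE 0.27, adjusted p = 0.366 from limma; exact permutation p = 0.0286), or -0.19 relative to all genes, and -0.31 without MycVD mouse 8.

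Bmf, whose product responds to loss of attachment and to other stress, was at 6.13, 0.43, 22.1 and 4.56 TPM in MycVD LZ and at 16.0, 8.48, 9.27 and 5.94 TPM in MycWT LZ. The p53-responsive genes Pmaip1 (3.88 to 6.89 TPM in MycWT, 0.79 to 8.89 in MycVD) and Bbc3 (0.56 to 1.13 and 0 to 4.86 TPM) likewise covered a wider range of TPM in MycVD. For these 3 the adjusted p was 0.580, 0.741 and 0.916 from limma. Their differences rested on single libraries, among them that of mouse 6, which had the fewest genes above 0 of the LZ libraries. The difference of Bmf was -0.78, -0.09 without mouse 6 and -1.43 without mouse 7. That of Pmaip1 was -0.36, 0.10 without mouse 6, -0.72 without mouse 5 and -0.23 without MycWT mouse 3. Bbc3 differed by 0.15, by -0.40 with a pseudocount of 0.1, by 0.02, 0.52 and 0.41 without mouse 5, 7 or 8 and by 0.05 without MycWT mouse 2. Bbc3 in MycVD mouse 7 is listed at 0, which can be a failed estimate at this unknown depth.

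**Figure D4:**
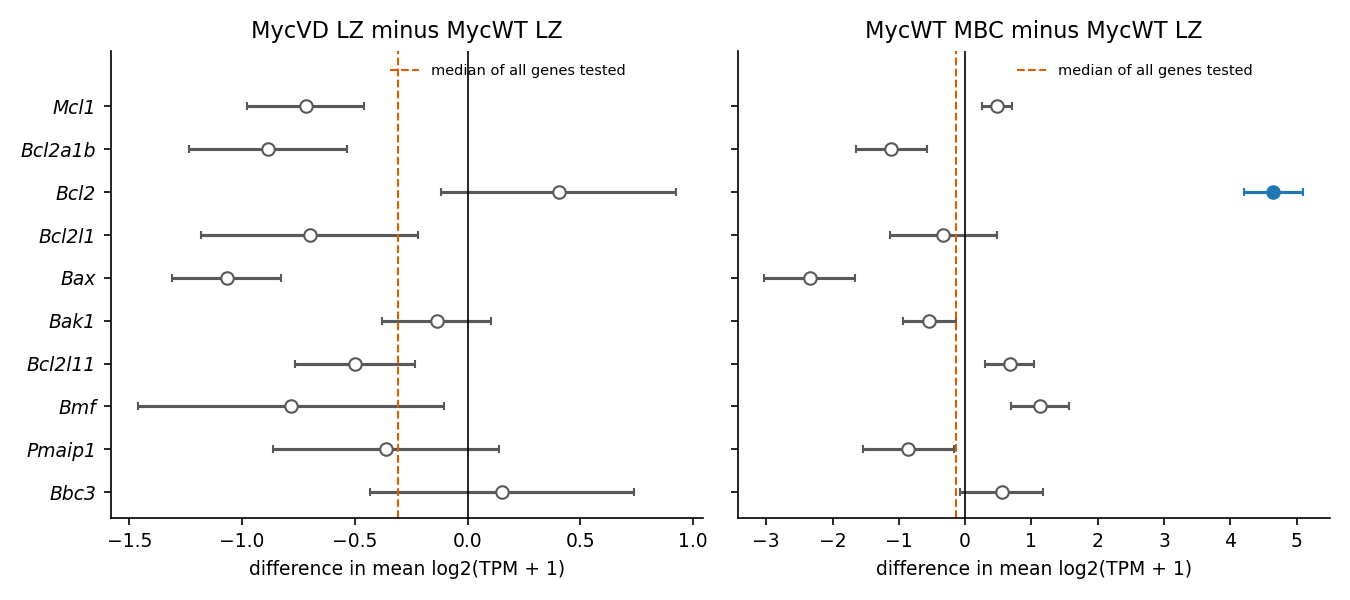
Difference in mean log2(TPM + 1) of each member, MycVD LZ minus MycWT LZ on the left and MycWT MBC minus MycWT LZ on the right (horizontal scales differ); bars are the standard errors from limma, filled points have an adjusted p under 0.05, and the dashed line is the median of all genes tested. Bcl2 in MBCs (4.65) is the only filled point, and Bax lies farthest to the left in both comparisons, which share the same MycWT LZ libraries.

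The comparison of MycWT MBCs with MycWT LZ B cells, which uses the same LZ libraries as control, asks how the family differs between LZ GC B cells and MBCs. Bcl2 rose and was the only member past the threshold. Of 13245 genes, 552 were called higher (4.17%) and 667 lower (5.04%), against 1 and 0 of the 10 members. At an unadjusted p under 0.05 there were 3 members (Bcl2, Bax and Bmf), beside 27.1% of all genes. In 3 members (Bcl2, Mcl1 and Bmf) all MBC libraries lay above all LZ libraries, as in 11.8% of all genes, and in 1 (Bax) below, as in 14.4%. These counts are of TPM as listed. Bmf overlapped with the median ratio scaling, and Mcl1 and Bmf overlapped with ribosomal RNA removed. The median log2 difference was 0.07 for the members and -0.14 for all genes. With the mouse as a replicate block (mice 1, 3 and 4, which gave both kinds of library), 248 genes were called, with Bcl2 the only member among them. That fit also lacks LZ mouse 2, and without this library and with no block 342 genes were called, against 1219 with all libraries.

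Bcl2 was at 45.2, 95.4 and 47.4 TPM in the MBCs of mice 1, 3 and 4, against 0.99 to 1.83 TPM in MycWT LZ. The lowest MBC library lay far above the highest LZ library, and within mice 1, 3 and 4 the level was 24.7, 70.2 and 32.5 times that of the LZ B cells of the same mouse. The mean rose from 1.41 ± 0.35 TPM (SD, n = 4) to 62.7 ± 28.4 TPM (SD, n = 3), a ratio of 44.5, and the log2 difference of 4.65 (SE 0.45, adjusted p = 0.00149 from limma) is smaller because a pseudocount of 1 weighs on the low LZ values. The exact permutation p was 0.0286, the smallest that 3 libraries against 4 allow. The difference was called in every alternative run, from 4.31 without the library of mouse 3 to 5.32 with a pseudocount of 0.1, with adjusted p from 0.000328 to 0.0138, the last in the replicate block.

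Markers of other cells also differed between the MBC and LZ libraries, and their part in the Bcl2 difference was not tested. Of 6 myeloid markers, 3 (Itgam, Csf1r and Cd68) lay above all MycWT LZ libraries, the summed level was 36.4, 58.7 and 178 TPM in mice 1, 3 and 4 against 7.69 to 18.7 TPM in LZ, and S100a8 and S100a9 were at 0 in all MBC libraries. Lyz2, most of the sum in mice 3 and 4, was at 0.15, 31.2 and 136 TPM in mice 1, 3 and 4 and at 0.70 to 5.71 TPM in MycWT LZ. The library of mouse 3, the highest in Bcl2, was that with 2160 TPM of erythroid transcripts. Without the library of mouse 3 the log2 difference of Bcl2 was 4.31, and without that of mouse 4 it was 4.80. Of the 6 T cell markers, Cd3e, Cd3d, Cd3g, Cd4 and Cd8a were listed at 0 in the MBCs of mice 1 and 3, whereas in mouse 4 they were at 5.37, 1, 1.37, 1.74 and 3 TPM, each above all MycWT LZ libraries. Lck, which made up most of the list's sum in LZ, was at 26.1, 0 and 18.8 TPM in mice 1, 3 and 4 and at 33.0 to 66.5 TPM in MycWT LZ. The summed level of the 6 T cell markers was 26.1, 0 and 31.2 TPM in the MBCs and 33.1 to 68.2 TPM in MycWT LZ.

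Bax showed the largest difference downward. It was at 1.46, 16.2 and 18.2 TPM in MBCs against 34.9 to 57.4 TPM in LZ, and in mouse 1, the lowest, it stood at 37.0 times less than in the LZ B cells of the same mouse, against 3.55 and 1.92 times less in mice 3 and 4. The log2 difference was -2.34 (SE 0.68, adjusted p = 0.0659 from limma; exact permutation p = 0.0286). It came under the threshold without the MBC library of mouse 1 (-1.38, adjusted p = 0.0383), of mouse 3 (-2.78, 0.0452) or of mouse 4 (-2.86, 0.0340) and with all 3 groups in 1 fit (adjusted p = 0.0203), and reached an adjusted p of 0.173 at most. Bak1, at 19.8, 61.6 and 38.5 TPM, overlapped LZ (log2 difference -0.54, SE 0.40, adjusted p = 0.425 from limma), with a difference of -0.12 without the MBC library of mouse 1 and -0.92 without that of mouse 3. The ratio of Bax to Bak1 within a library was 0.0739, 0.262 and 0.473 in MBCs, each below the 0.805 to 0.970 of MycWT LZ.

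None of the other prosurvival members passed the test. Mcl1 was at 201, 322 and 242 TPM in MBCs, all above the 161 to 199 TPM of LZ but with the lowest only just so (log2 difference 0.48, SE 0.22, adjusted p = 0.210 from limma, and 0.29 without the MBC library of mouse 3). Bcl2a1b was at 22.8, 55.7 and 96.1 TPM (-1.11, SE 0.53, adjusted p = 0.217). The difference was -0.57 without the MBC library of mouse 1, -1.58 without that of mouse 4, and -0.60 (adjusted p = 0.501 from limma) with the copies summed. Among the A1 copies, Bcl2a1b took 38.8 to 47.6% in MBCs and 56.7 to 73.1% in LZ, without overlap, a share that depends on how reads of near-identical transcripts were divided. Bcl2l1 was listed at 0 in mouse 1 and was at 9.26 and 3.28 TPM in mice 3 and 4 (-0.33, SE 0.81, adjusted p = 0.831 from limma), and the difference was 0.58 without the MBC library of mouse 1, -1.10 without that of mouse 3, and -0.58, -0.17 and -0.15 without the LZ library of mouse 1, 2 or 3. Bcl2 made up 16.8, 19.8 and 12.2% of the 4 prosurvival transcripts (9.37 to 16.7% with the A1 copies summed), and Mcl1 stood at 3.37 to 5.10 times Bcl2 in MBCs against 92.0 to 201 times in MycWT LZ.

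Of the 4 BH3-only members none passed the test in MBCs. Bmf was at 16.4, 28.7 and 21.6 TPM, above the 5.94 to 16.0 TPM of LZ, although in mouse 1 it was 1.02 times its LZ level (log2 difference 1.13, SE 0.43, adjusted p = 0.134 from limma). Bcl2l11 was at 54.1, 21.6 and 32.4 TPM (0.67, SE 0.37, adjusted p = 0.277), with mouse 3 within the LZ range and a difference of 0.34 without the MBC library of mouse 1. Pmaip1 (0.12 to 6.03 TPM, -0.86) and Bbc3 (0.09 to 4.19 TPM, 0.56) both overlapped LZ and had their lowest value in mouse 3. Both rested on single libraries: without the MBC library of mouse 3 Pmaip1 was at -0.07 and Bbc3 at 1.24, without that of mouse 4 at -1.40 and 0.31, and without that of mouse 1 Bbc3 was at 0.11. The summed level of these 4 was 50.4 to 78.3 TPM in MBCs and 32.7 to 40.6 TPM in LZ. Bcl2 stood to Bcl2l11 as 0.835, 4.42 and 1.46 in MBCs and as 0.0514 to 0.0943 in MycWT LZ, while the sum of the prosurvival members to that of the BH3-only members was 3.43 to 9.56 and 5.52 to 10.6, which overlap.

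Around the members, 54 genes in 6 lists of the apoptosis pathway were followed. In MycVD LZ 46 of them could be tested with limma, 0 passed the adjusted threshold, 13 had an unadjusted p under 0.05 (16.9% of all genes did), and 40 had a lower mean (73.7% of all genes did). The median log2 difference was -0.74 for the apoptosome and caspases (11 tested, all 11 lower in mean), -0.74 for the other prosurvival genes (3), -0.57 for other effector, BH3-only and BCL2-related genes (7), -0.51 for death receptors and adaptors (6), -0.32 for regulators of the members (15) and -0.28 for inhibitors of apoptosis (4), beside the -0.31 of all genes. In MBCs 45 could be tested, of which 1 rose and 2 fell, while 9.20% of all genes were called, and 14 had an unadjusted p under 0.05, beside 27.1% of all genes. The medians there, beside the -0.14 of all genes, were -0.78 for the apoptosome and caspases (11 tested), -0.30 for other effector, BH3-only and BCL2-related genes (6), 0.06 for the other prosurvival genes (3), 0.08 for the regulators (15), 0.54 for the death receptors and adaptors (6) and 0.62 for the inhibitors of apoptosis (4).

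Bcl6, the GC repressor known to act on Bcl2, fell in MBCs. It was at 191, 177, 215 and 156 TPM in MycWT LZ, at 207, 187, 185 and 142 TPM in MycVD LZ and at 48.7, 23.2 and 53.4 TPM in MBCs (log2 difference -2.20, SE 0.32, adjusted p = 0.00594 from limma), and it was called in every alternative. The MBC library lowest in Bcl6 and highest in Bcl2 was that of mouse 3, which held 2160 TPM of erythroid transcripts. The LZ libraries of both genotypes had like Bcl6 levels, with Bcl2 from 0.40 to 6.40 TPM. Pearson's r between Bcl2 and Bcl6 was -0.95 on the log2(TPM + 1) scale over the 11 libraries, a description that rests on the distance between MBCs and LZ. The part of Bcl6 in the Bcl2 difference was not tested.

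Cycs, cytochrome c, which BAX and BAK release from mitochondria, fell from 36.4 to 55.7 TPM in MycWT LZ to 16.6, 9.64 and 8.88 TPM in MBCs (log2 difference -1.88, SE 0.34, adjusted p = 0.0137 from limma). Its adjusted p rose to 0.0552, 0.0658 and 0.0666 without the LZ library of mouse 1, 2 or 3 and to 0.130 with the replicate block, which also lacks mouse 2. Huwe1, a ubiquitin ligase that marks MCL1 for degradation, rose from 168 to 205 TPM to 296, 362 and 354 TPM (0.84, SE 0.19, adjusted p = 0.0292 from limma). Its adjusted p lay between 0.0689 and 0.102 without any 1 of the LZ libraries, and was 0.131 without a trend in limma and 0.213 with the replicate block. Of the remaining prosurvival genes, Bcl2l2 (BCL-W) was at 0.63 to 1.62 TPM in LZ and at 9.79, 0.17 and 3.02 TPM in MBCs, and Bcl2l10 was listed at 0 in all 11 libraries. Bcl2a1d was at 35.4 to 95.01 TPM in MycWT LZ, 26.3 to 61.7 TPM in MycVD LZ and 24.8 to 111 TPM in MBCs, and Bcl2a1a at 0 to 6.59 TPM in all.

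Genes with a pattern most like that of 3 members were sought by Pearson's r of log2(TPM + 1) over the 11 libraries, among the 8006 protein-coding genes whose mean was 5 TPM or more. Those nearest to Bcl2 were Cd38 (r = 0.98), by which the MBCs and LZ B cells were sorted, Ddx58 (0.98) and Ripor2 (0.97). Cd38 was at 200 to 276 TPM in MBCs and 6.18 to 18.3 TPM in LZ. Nearest to Bcl2a1b were Relb (0.89), a subunit of NF-kB, Pagr1a (0.89) and Rpl39 (0.88), and nearest to Bcl2l11 were Ctsb (0.95), Mef2a (0.95) and Vasp (0.94). These values are descriptions, since libraries of a group share their condition and scaling.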

How the data were processed

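RNA of LZ B cells of 4 MycWT and 4 MycVD mice and of MBCs of 3 MycWT mice was sequenced after amplification with a Nugen cDNA kit, 1 library per sort. Per the labels, reads were processed with STAR 2.5.2a and RSEM 1.3.0 on GRCm38. The authors deposited TPM with 2 decimals in 1 table. TPM hold no depth, so precision was taken from the spread between mice, and a library in which ribosomal RNA takes more leaves less for other genes. Count models, for which DESeq2 1.18.1 is named per the labels, were not used here.

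Symbols and coordinates came from GENCODE M21 (GRCm38), and upstream sequences from RefSeq (GRCm38.p6). Log2(TPM + 1) values were fitted with limma 3.58.1 in R 4.3.3, its variance prior following the mean level. Only the 2 groups compared entered a fit, and genes averaging under 1 TPM in them were left out. This scale understates differences of low genes. All 10 members passed that filter in both comparisons. Adjusted p-values (Benjamini-Hochberg) are over all genes tested. Exact permutation tests of the absolute difference in mean log2(TPM + 1) (scipy 1.17.1) ran over 70 groupings of 4 against 4 or 35 of 3 against 4, with a smallest two-sided p of 0.0286 in both; permutation p-values are unadjusted, for 20 tests. Scripts were checked on simulated data.

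The members, the lists around them and the tests were chosen with earlier results of these data known. Named were all members, genes of the 54 past the threshold, the other prosurvival genes and the 3 nearest genes of Bcl2, Bcl2a1b and Bcl2l11. LZ and MBC libraries of the same number are of the same mouse, as the labels show; their deviations from the group means correlated with r = 0.00507, 0.0115 and -0.047 over 13245 genes. The alternatives tried were scaling by the median ratio, removal of 356 ribosomal RNA genes, a pseudocount of 0.1, a filter of 5 TPM or none, a fit of all 3 groups, limma with no trend, each library left out, the mouse as a replicate block and the A1 copies summed. Labels and methods differ in the number of sheep red blood cells given, which is therefore not stated.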

Additional observations from a re-analysis of the deposited data

How the results depend on the processing

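In MycVD against MycWT LZ, 0 members were called under any alternative. The number of all genes called was 6, and it was 0 with a pseudocount of 0.1, no filter, median ratio scaling or all 3 groups in 1 fit, 1 with ribosomal RNA removed, 15 with a mean of at least 5 TPM, and 0 to 254 with a library left out, the last without MycVD mouse 5. The difference turned for Bak1 to 0.19 (median ratio scaling) and 0.17 (ribosomal RNA removed), for Bbc3 to -0.40 (pseudocount 0.1), and with a library left out for Bcl2 (range -0.0044 to 0.80) and Pmaip1 (-0.72 to 0.10). Without a change of sign or call, Bax went from -1.07 to -0.74 with median ratio scaling and to -0.78 with ribosomal RNA removed. Likewise, median ratio scaling brought Bcl2l1 to -0.46, Mcl1 to -0.38, Bcl2a1b to -0.55, Bcl2l11 to -0.18, Bmf to -0.51, Pmaip1 to -0.10 and Bbc3 to 0.28. Removal of ribosomal RNA brought Mcl1 to -0.41, Bcl2a1b to -0.58, Bcl2l11 to -0.21, Pmaip1 to -0.16 and Bcl2 to 0.67, and a pseudocount of 0.1 brought Bcl2l1 to -1.07 and Pmaip1 to -0.55. Bbc3 fell under the filter without MycVD mouse 6.

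In MBCs against LZ, members called were 1 (Bcl2), 2 (with Bax) with all 3 groups in 1 fit, and 1 to 2 with a library left out. Of all genes, 1219 were called, 608 with no filter, 342 to 2754 with a library left out (the last without the MBC library of mouse 4) and 248 with the replicate block, a fit that also lacks LZ mouse 2, without which 342 were called with no block. Bcl2l1 ranged from -1.10 to 0.58 with a library left out, and was -1.23 with a pseudocount of 0.1, -0.55 with ribosomal RNA removed and -0.17 with the replicate block. Pmaip1 was -1.57 with a pseudocount of 0.1. Cycs and Huwe1 were not called with the replicate block, nor without LZ mouse 2 alone; the block changed no call of a member. The cause of these changes was not tested. The depth of the libraries is unknown, so low values (Bcl2 and Bbc3 in LZ, Bcl2l1) carry an error that cannot be given.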
